A study of Triticum aestivum with 9 samples.

Results

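Leaves of wheat seedlings (Triticum aestivum, cultivar Yunong211) that received tauroursodeoxycholic acid (TUDCA) together with dithiothreitol (DTT) were compared with leaves of seedlings that received DTT alone (T vs. D). The DTT+TUDCA group (T) was given 7.5 mM DTT and 25 μg/mL TUDCA, the DTT group (D) was given 7.5 mM DTT, and the untreated control group (C) received neither and serves here as a background level. Leaves were taken after 2 days of treatment, with 3 biological replicates in each group, so that 6 of the 9 RNA-seq libraries were compared. The 3 control libraries also entered the estimate of the spread between replicates, and so bear on each SE, P-value and call. Seedlings given TUDCA without DTT were not analysed here, so the comparison concerns TUDCA in plants that also had DTT. The members were all genes with a mean of at least 0.1 FPKM over the 9 libraries, which were 78030 of the 130542 genes in the table. FPKM is the number of sequenced fragments per kilobase of transcript, scaled to the size of the library.

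The endoplasmic reticulum (ER) is the compartment in which secreted and membrane proteins fold, with the help of chaperones and of enzymes that form disulfide bonds. DTT reduces those bonds, so that proteins misfold and the unfolded protein response switches on genes for chaperones, protein export and degradation. TUDCA is a bile acid derivative that is used in animal and plant cells to ease ER stress. In plants this response runs beside those to water loss, abscisic acid (ABA) and pathogens, whose genes are also described here.

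The FPKM values rested on 16334894 to 20228257 fragments per library in DTT+TUDCA leaves, 18672397 to 22252850 in DTT leaves and 18365995 to 26760227 in control leaves. DTT+TUDCA replicate 2 stood apart. It differed more than 4-fold from the other replicates of its group at 2142 of 55137 genes with a mean of at least 1 FPKM, against 164 to 578 genes in the other 8 libraries. Results are therefore also given without it, and its part in a result was not tested otherwise. The leaf label was checked with the 10 genes of the photosystem I reaction center. All 10 had a mean above 1 FPKM in each group, and their FPKM summed to 4834 to 6382 in DTT+TUDCA leaves, 5008 to 5856 in DTT leaves and 9479 to 13572 in control leaves. In whole leaves, fewer cells of a type and less RNA per cell cannot be told apart.

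A gene was called changed where limma, run on log2(scaled FPKM + 0.1), gave an unadjusted P-value under 0.01 and where the log2 fold change was 1 or more in size, which are the thresholds of the study. Fold changes on this scale understate the change of weakly expressed genes. Of the 78030 genes, 857 were called (1.10%). With TUDCA, 493 of them were higher (0.632% of the genes tested) and 364 lower (0.466%). Of all genes tested, 47.9% had a positive log2 fold change. Counts of the lists below are to be read beside these shares. All 3 DTT+TUDCA libraries lay above all 3 DTT libraries at 4335 genes (5.56%) and below them at 3937 (5.05%), which include 485 of the raised and 338 of the lowered genes. The raised genes had a median of 2.66 FPKM in DTT+TUDCA leaves, 0.785 FPKM in DTT leaves and 1.26 FPKM in control leaves. The lowered genes had a median of 0.408 FPKM in DTT+TUDCA leaves, 1.81 FPKM in DTT leaves and 0.32 FPKM in control leaves. Over all genes tested the median in control leaves was 2.25 FPKM. Of the 364 lowered genes, 160 had 3 fragments or fewer in every control library, as did 84 of the 493 raised genes. The share over all genes tested was not counted. Genes near 0 in DTT+TUDCA and control leaves enter the test only through their DTT level, so these counts are no evidence about the lowered genes. The sets were spread over the 3 wheat genomes, with 123 raised and 95 lowered genes among 20028 of genome A, 151 and 116 among 20474 of genome B, and 161 and 108 among 20706 of genome D.

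**Figure D1:**
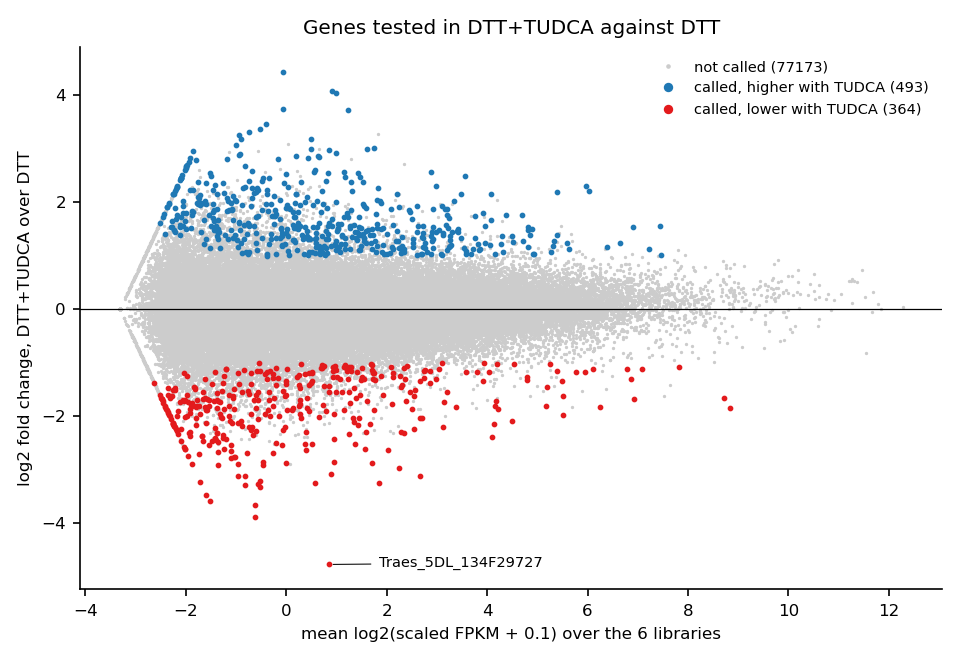
Log2 fold change (DTT+TUDCA over DTT, y axis) of each of the 78030 genes against its mean log2(scaled FPKM + 0.1) over the 6 libraries (x axis). Blue points are the 493 genes called higher, red points the 364 called lower and grey points the others, and the labelled gene lies below all others at -4.77.

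Without DTT+TUDCA replicate 2, 615 genes were called (0.788%), 348 higher (0.446%) and 267 lower (0.342%), and 413 genes were called in both fits. That replicate had the highest level of its group in 346 of the 493 raised genes and the lowest in 183 of the 364 lowered genes. Without DTT+TUDCA replicate 1 the counts were 872 higher and 1310 lower, without DTT+TUDCA replicate 3 there were 758 higher, and without DTT replicate 3 there were 215 lower. After Benjamini-Hochberg adjustment over all genes (limma), 1 gene had a P-value under 0.05 (0.00128%), and limma-voom on the recovered fragments also gave 1. The lowest adjusted P-value of any other gene was 0.069, so all other calls rest on the unadjusted threshold.

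The gene that passed the adjustment was Traes_5DL_134F29727, which the study lists under the GO term response to water, a term often given to dehydrins, small proteins that protect cells that dry out. It had 0.2, 0.32 and 0.25 FPKM in DTT+TUDCA leaves, against 7.29, 7.65 and 18.6 FPKM in DTT leaves, and was listed at 0 in all 3 control libraries. In DTT+TUDCA leaves this was 3 to 4 fragments a library, against 104 to 301 in DTT leaves. The groups lay far apart, and every DTT+TUDCA library was close to the level of untreated leaves. Like some lowered genes named below, it reached the minimum mean of 0.1 FPKM only through its DTT level. Its low level in the other groups is therefore no separate evidence. The log2 fold change was -4.77 (SE 0.39, limma, adjusted P = 0.023). Without DTT+TUDCA replicate 2 it was -4.92 (adjusted P = 0.068), and over all settings the adjusted P-value ranged from 0.016 to 0.48.

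The next 5 genes by P-value, chosen after their values were seen, are among those for which the study designed qRT-PCR primers. Their forward and reverse primers are given because these stretches were designed for the transcripts that follow it in order of P-value.
Traes_3AL_0C7CB044E, forward: tacatgagccagcaccagca
Traes_3AL_0C7CB044E, reverse: gtctcgtcgtgtcgtttgcc
Traes_6DL_94DCF0B70, forward: tcccacagggtggttcttgc
Traes_6DL_94DCF0B70, reverse: aggcctcctttggttgctct
Traes_4BL_9421592BC, forward: ggcaacagtcctggaggtga
Traes_4BL_9421592BC, reverse: agcacgtacaccgcgtagat
Traes_7DS_4DEABD294, forward: ttcagctgcctgctgtggat
Traes_7DS_4DEABD294, reverse: tggcgatgtagaggctctcg
Traes_6BL_5B613F9E5, forward: ccctcctcgcccactacaag
Traes_6BL_5B613F9E5, reverse: aggcctcctttggttgctct
The reverse primers of Traes_6DL_94DCF0B70 and Traes_6BL_5B613F9E5 are the same 20 bases, so these genes share at least this stretch, and reads of such near-identical copies, which wheat carries on each of its genomes, can be assigned to the wrong one. Of the 40 genes with primers in the table of the study, 22 were called higher and 3 lower. The study picked them, so this count is no evidence of direction.

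The gene Traes_6DL_94DCF0B70 is named OPR1 in the study. OPR proteins are 12-oxophytodienoate reductases, flavin enzymes of which some act in jasmonate synthesis. It had 6.43, 5.83 and 4.62 FPKM in DTT+TUDCA leaves, against 0.47, 0.59 and 1.06 FPKM in DTT leaves and 0.25 to 0.31 FPKM in control leaves. All DTT+TUDCA libraries were well above all DTT libraries, which themselves were above the control libraries. The log2 fold change was 2.92 (SE 0.31, limma, adjusted P = 0.08), and 2.86 without DTT+TUDCA replicate 2.

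Each of the 4 genes under FMN binding, the term for proteins that carry this flavin cofactor, was called higher, and 3 of them also without DTT+TUDCA replicate 2. The study drew the term from its own T vs. D result, so the count is not independent evidence of its direction. Traes_6BL_5B613F9E5, which shares the primer above, had 14.6, 27.4 and 14.8 FPKM in DTT+TUDCA leaves, against 3.85, 2.96 and 4.52 FPKM in DTT leaves and 0.81 to 1.41 FPKM in control leaves. Like OPR1 on chromosome 6D, it was lowest in untreated leaves. The other 2 genes named OPR1 had the opposite background. Traes_2DS_A886F6C92 had 6.83, 9.19 and 4.07 FPKM in DTT+TUDCA leaves, 2.19, 2.67 and 2.02 FPKM in DTT leaves, and 14.8 to 18.7 FPKM in control leaves. Traes_2AS_A9F768C2B had 13.5, 19.6 and 12 FPKM in DTT+TUDCA leaves, 8.06, 7.78 and 4.82 FPKM in DTT leaves, and 28.7 to 34.3 FPKM in control leaves. Their log2 fold changes were 1.49 (SE 0.28) and 1.17 (SE 0.24), and their DTT+TUDCA levels lay between those of DTT and control leaves.

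Among the other primer genes, Traes_3AL_0C7CB044E had 7.32, 8.99 and 8.76 FPKM in DTT+TUDCA leaves, against 2.67, 2.32 and 1.94 FPKM in DTT leaves and 2.67 to 3.04 FPKM in control leaves. Its replicates were close together in each group (log2 fold change 1.87, SE 0.19, limma, adjusted P = 0.069). The gene Traes_4BL_9421592BC had 34.6, 24.9 and 29.2 FPKM in DTT+TUDCA leaves, against 88.3, 70.1 and 76 FPKM in DTT leaves and 9.74 to 11.5 FPKM in control leaves. Traes_7DS_4DEABD294 had 6.95, 2.95 and 3.4 FPKM in DTT+TUDCA leaves, against 18.4, 19.1 and 22.9 FPKM in DTT leaves and 0.77 to 1.14 FPKM in control leaves. Both fell without overlap, by 1.35 (SE 0.16) and 2.2 (SE 0.29) on the log2 scale, to levels above those of the control. The tables used here give no gene name for these 3.

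**Figure D2:**
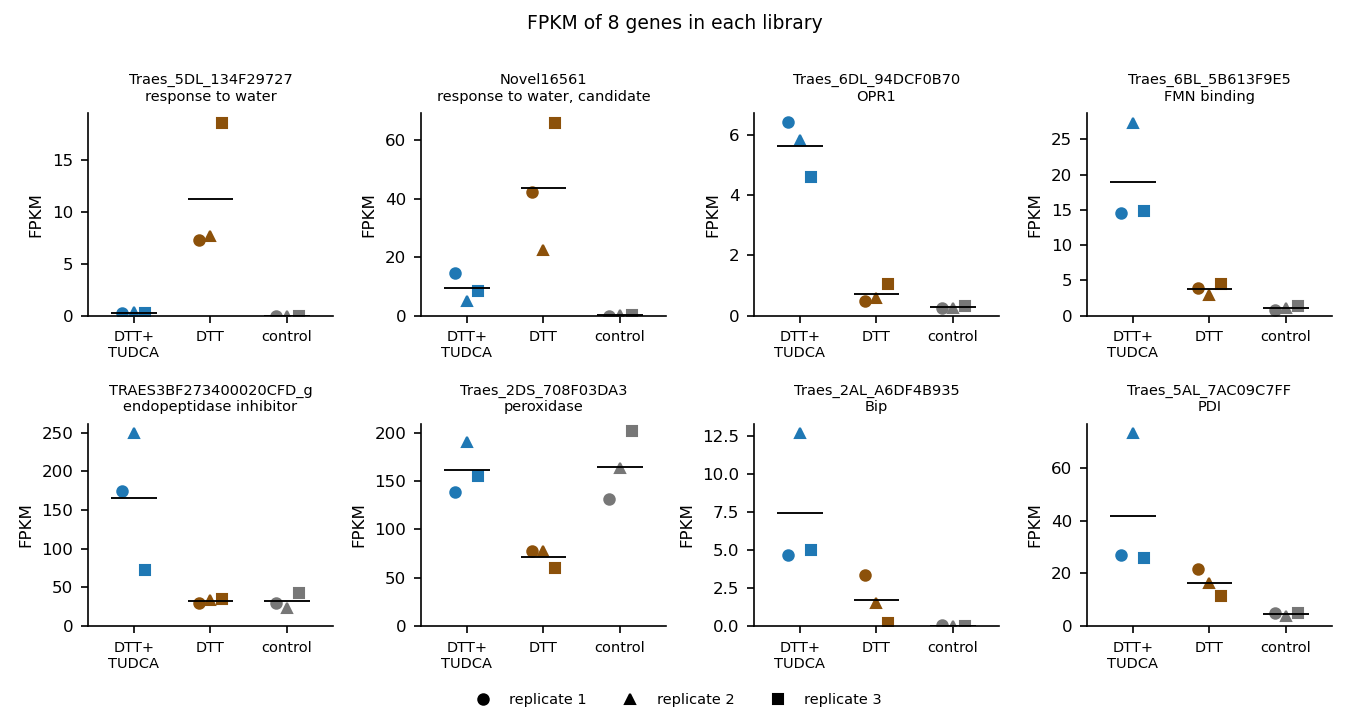
FPKM (y axis, linear, from 0) of 8 genes in each library of the DTT+TUDCA, DTT and control groups (x axis), with circles, triangles and squares for replicates 1, 2 and 3 and a line at the mean of each group. The response to water genes are low with TUDCA, the OPR1 and FMN binding genes are high in all 3 DTT+TUDCA libraries, and for Bip and PDI the triangle of replicate 2, at 12.7 and 73.2 FPKM, is far above the other replicates.

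Response to water was the term whose genes fell most often. Of 25 genes tested, 10 were called lower, none higher and 24 had a negative log2 fold change, with a median of -1.62 against -0.02 over all genes tested. Without DTT+TUDCA replicate 2 the median was -1.11 and 9 genes were called, each of them also called in the full fit. Without DTT+TUDCA replicate 1 there were 16 calls and without DTT replicate 3 there were 5. Of the 25 genes, 7 come from the T vs. D table of the study and all 7 were called lower. The other 18 come from its D vs. C table alone, and 3 of them were called lower, with a median of -1.39. D vs. C uses the same DTT libraries, so neither part of the list is independent evidence of its direction.

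These genes were mostly low in untreated leaves, where 19 of the 25, including all 10 called, had a mean under 1 FPKM. In single control libraries 11 to 13 were listed at 0. The share over all genes tested was not counted. Most of the list was drawn from D vs. C, so its low control level is no independent evidence. The summed FPKM of the 25 genes was 1809.7, 720.6 and 910.8 in DTT+TUDCA leaves, against 2628.7, 1660.4 and 2465.8 in DTT leaves and 571.4 to 725.1 in control leaves. The sums overlapped, since DTT+TUDCA replicate 1 was above DTT replicate 2. Among the single genes, Novel16561 is annotated as dehydrin DHN3 in the candidate table of the study. It had 14.7, 5.15 and 8.36 FPKM in DTT+TUDCA leaves, against 42.1, 22.5 and 65.9 FPKM in DTT leaves and 0 to 0.14 FPKM in control leaves. It fell by 2.14 (SE 0.48) on the log2 scale with no overlap. Novel09719, annotated as the cold shock protein CS66, had 4.87, 1.43 and 3.75 FPKM in DTT+TUDCA leaves, against 19, 6.22 and 13.1 FPKM in DTT leaves and at most 0.04 FPKM in control leaves (log2 fold change -1.86, SE 0.48).

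Novel07922, which carries no further name, had 4.67, 0.82 and 1.16 FPKM in DTT+TUDCA leaves and 17.2, 9.56 and 18 FPKM in DTT leaves, and was listed at 0 in control leaves (log2 fold change -2.97, SE 0.53). Novel15565 had 0, 0.37 and 0 FPKM in DTT+TUDCA leaves and 1.54, 1.47 and 7.39 FPKM in DTT leaves. It too entered the test only through its DTT level. The mean of its DTT libraries was at least 9.47-fold above a floor of 3 fragments in each DTT+TUDCA library. Such bounds, here and below, set a group mean against the floor, so single replicates can lie closer to it. The most abundant genes of the term moved less. Novel17043 had 503, 175 and 223 FPKM in DTT+TUDCA leaves, against 629, 501 and 554 FPKM in DTT leaves and 112 to 137 FPKM in control leaves, a log2 difference of -0.99 that was not called, and its groups touched because DTT+TUDCA replicate 1 was slightly above DTT replicate 2.

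**Figure D3:**
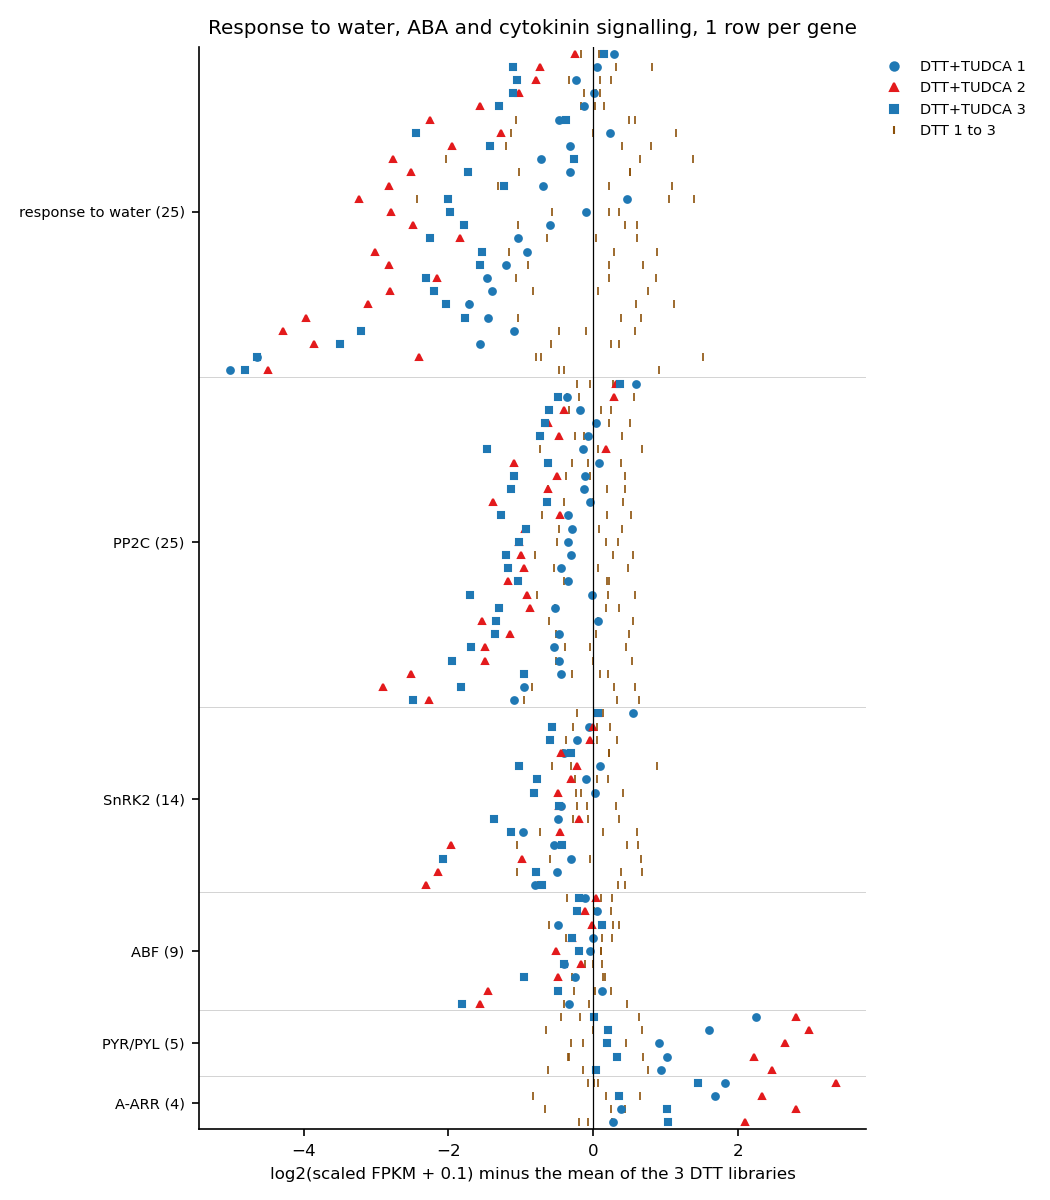
Log2(scaled FPKM + 0.1) of each library minus the mean of the 3 DTT libraries (x axis), 1 row per gene, for response to water and for groups of ABA and cytokinin signalling, with the number of genes in parentheses. Blue circles and squares are DTT+TUDCA replicates 1 and 3, red triangles DTT+TUDCA replicate 2 and brown ticks the DTT libraries; most response to water and PP2C genes lie left of 0 (24 of 25 each by fold change), and all 5 PYR/PYL genes lie right of it on average.

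ABA drives many dehydrin genes. It binds PYR/PYL receptors, which then block the PP2C phosphatases, so that SnRK2 kinases become active and phosphorylate ABF transcription factors. The 25 PP2C genes tested were lower with TUDCA in 24 cases, with a median log2 fold change of -0.80. Of all genes tested, 47.9% were higher. Among the PP2C genes, 4 were called lower (16.0%, against 0.466% of all genes tested). None of these 4 calls remained without DTT+TUDCA replicate 2, although the median was still -0.70. DTT+TUDCA replicate 1 was the highest of its group in 23 of the 25 genes. The median differences from the DTT mean were -0.31, -0.96 and -1.14 in DTT+TUDCA replicates 1, 2 and 3, against 0.08, -0.51 and 0.45 in DTT replicates 1, 2 and 3, so that DTT+TUDCA replicate 1 lay above DTT replicate 2. The PP2C gene Traes_3DL_71B7E80D2 had 0.62, 0.2 and 0.17 FPKM in DTT+TUDCA leaves, against 1.91, 0.71 and 2.3 FPKM in DTT leaves, and was listed at 0 in control leaves (log2 fold change -1.95, SE 0.51). A more abundant one, TRAES3BF051200120CFD_g, had 4.05, 1.93 and 1.77 FPKM in DTT+TUDCA leaves, against 5.94, 4.66 and 8.16 FPKM in DTT leaves, and was also listed at 0 in control leaves (log2 fold change -1.25, SE 0.35). Both pairs of groups were free of overlap, but the lowest DTT library was close to the highest DTT+TUDCA library.

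Of 14 SnRK2 genes, 13 had a negative log2 fold change and none was called (median -0.45). All 9 ABF genes had a negative log2 fold change and none was called (median -0.26). The 5 PYR/PYL genes went the other way, with log2 fold changes of 1.15 to 1.68 and a median of 1.25, or 0.68 without DTT+TUDCA replicate 2, and again none was called. In the receptor gene Traes_4AS_72BEF89AC the FPKM was 0.98, 1.39 and 0.13 in DTT+TUDCA leaves, 0.1, 0.26 and 0.06 in DTT leaves, and 2.85 to 3.01 in control leaves. DTT+TUDCA replicate 3 lay within the DTT libraries, and the difference missed the threshold. All these genes come from the hormone table of the study, which was drawn from D vs. C.

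Cytokinin induces the A-type response regulators (A-ARR), which damp its signal. All 4 A-ARR genes tested were higher with TUDCA, with a median log2 fold change of 1.43 (0.86 without DTT+TUDCA replicate 2), and 1 was called. This gene, Traes_3DL_9DF0E96E5, had 4.21, 11.7 and 3.22 FPKM in DTT+TUDCA leaves, against 1.1, 1.21 and 1.13 FPKM in DTT leaves and 6.37 to 9.96 FPKM in control leaves. Its DTT libraries were nearly equal and all DTT+TUDCA libraries lay above them, with a log2 fold change of 2.2 (SE 0.43) and of 1.63 without DTT+TUDCA replicate 2. The PR-1 genes, markers of salicylic acid signalling, were higher in 7 of 10 cases with a median of 0.31, and none was called. Over the whole hormone list, 1 gene was called higher and 4 lower of 97 tested, but without DTT+TUDCA replicate 1 there were 17 calls, without DTT replicate 2 there were 15, without DTT+TUDCA replicate 2 there were 2, and without DTT replicate 1 or DTT replicate 3 there was 1.

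Genes of ER protein processing were mostly higher with TUDCA than with DTT alone. Of the 66 genes, 48 had a positive log2 fold change (72.7%, against 47.9% of all genes tested), and the median was 0.66. Among the 66, 9 were called higher and 1 lower (15.2%, against 1.10% of all genes tested). DTT+TUDCA replicate 2 had the highest level of its group in 46 of the 66 genes. The median difference from the DTT mean was 0.40, 1.37 and 0.15 on the log2 scale in DTT+TUDCA replicates 1, 2 and 3. Without replicate 2 the median was 0.29, with 3 genes called higher and 2 lower, of which 4 were called in both fits. Without DTT replicate 3 there were 2 calls, without DTT replicate 2 there were 5, and without DTT+TUDCA replicate 3 there were 15. The study collected these genes from all its comparisons, T vs. D among them, so the list is not independent evidence either.

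The groups Bip and Hsp70 held 3 calls each. Bip is the Hsp70 of the ER lumen and the usual marker of the unfolded protein response. All 6 genes listed as Bip had a positive log2 fold change, with a median of 1.83 (1.58 without DTT+TUDCA replicate 2), and 3 were called higher. In Traes_2AL_A6DF4B935 the FPKM was 4.68, 12.7 and 4.99 in DTT+TUDCA leaves, against 3.4, 1.56 and 0.2 in DTT leaves and 0 to 0.07 in control leaves (log2 fold change 2.54, SE 0.78). The highest DTT library was not far below the lowest DTT+TUDCA library, and without DTT+TUDCA replicate 2 the log2 fold change was 2.06 and the gene was not called. The most abundant Bip gene, Traes_6AS_236AF32FD, had 62.8, 128 and 32 FPKM in DTT+TUDCA leaves, against 37.5, 44.1 and 17.7 FPKM in DTT leaves and 8.8 to 14 FPKM in control leaves, a log2 difference of 1.10 that was not called. Another gene listed as Bip, Traes_2BS_FF5A68083, is also listed under serine/threonine kinase activity, which is not a function of Bip. It had 0.97, 2.06 and 1.95 FPKM in DTT+TUDCA leaves and 0.89, 0.32 and 0.16 FPKM in DTT leaves (log2 fold change 1.85, SE 0.50), and without DTT+TUDCA replicate 2 it was not called (1.64). Among the Bip genes, only Traes_1BL_EFDDA2877 was called in both fits (log2 fold change 1.81, SE 0.40, and 1.66 without that replicate). It had 0.73, 0.74 and 0.39 FPKM in DTT+TUDCA leaves, against 0.05, 0.17 and 0.1 FPKM in DTT leaves, and was listed at 0 in control leaves. Against a floor of 3 fragments in each DTT library it was at least 4.16-fold higher with TUDCA.

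Of the 9 Hsp70 genes outside the Bip group, which work mainly in the cytosol, 6 were higher and 3 lower. The log2 fold changes reached down to -1.88, and 3 genes were called, all higher. Without DTT+TUDCA replicate 2, 1 was called higher and 1 lower, and only 1 call held in both fits. In Traes_4BL_E73DF7876 the FPKM was 19.6, 12.1 and 10.1 in DTT+TUDCA leaves, against 5.48, 5.17 and 4.62 in DTT leaves and 2.16 to 6.6 in control leaves. Here replicate 2 was not the extreme one, and the gene was called with it (log2 fold change 1.44, SE 0.37) and without it (1.48). The small heat shock protein gene Traes_5BL_9FDF53F78 was called in both fits as well, with 2.33, 8.3 and 2.08 FPKM in DTT+TUDCA leaves, 0.9, 1.02 and 0.75 FPKM in DTT leaves and 1.34 to 2.48 FPKM in control leaves.

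Protein disulfide isomerases (PDI) form and shuffle the disulfide bonds that DTT reduces. Of 8 PDI genes, 7 had a positive log2 fold change and 1 was called, with a median of 0.62, or 0.21 without DTT+TUDCA replicate 2. The called gene, Traes_5AL_7AC09C7FF, had 27, 73.2 and 25.7 FPKM in DTT+TUDCA leaves, against 21.8, 16.3 and 11.5 FPKM in DTT leaves and 4.04 to 4.98 FPKM in control leaves. All DTT+TUDCA libraries were above all DTT libraries, but only replicate 2 was far above them. Calnexin (CNX), a lectin chaperone, had 12.1, 32.1 and 12.2 FPKM in DTT+TUDCA leaves, against 11.2, 14 and 9.79 FPKM in DTT leaves, and its log2 difference of 0.60 became 0.10 without replicate 2. GRP94, the Hsp90 of the ER, had 9.21, 10.4 and 6.33 FPKM in DTT+TUDCA leaves and 5.43, 6.21 and 5.67 FPKM in DTT leaves (log2 difference 0.60, not called). The co-chaperones of Hsp70 were higher as well, with 3 of 3 Hsp40 genes and 6 of 6 nucleotide exchange factor genes, medians of 0.66 and 0.73 (0.25 and 0.26 without replicate 2) and no call.

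Genes of protein transport gave no call. SAR1, the GTPase that starts vesicle budding from the ER, was higher in 3 of 3 genes, and SEC61, the channel through which proteins enter the ER, in 4 of 6, whereas the vesicle coat genes Sec23/24 were lower in 3 of 3. In the SAR1 gene Traes_7AL_FDC2E2F77 the FPKM was 19.8, 67.7 and 10.8 in DTT+TUDCA leaves, against 16.6, 11.4 and 2.15 in DTT leaves and 0 in control leaves. The groups overlapped. Of the degradation branch, the ubiquitin ligase gene Novel07785 (RMA1) rose, with 59.7, 104 and 73.7 FPKM in DTT+TUDCA leaves, 50.5, 34.1 and 28.2 FPKM in DTT leaves and 81.1 to 95 FPKM in control leaves, but it was not called without DTT+TUDCA replicate 2 (log2 difference 0.89). The ubiquitin-conjugating gene Traes_6BS_72F59E261 (UbcH5) fell, with 5.39, 5.23 and 2.9 FPKM in DTT+TUDCA leaves, 15.9, 7.02 and 12.4 FPKM in DTT leaves and 3.54 to 4.88 FPKM in control leaves, and it was called in both fits.

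The transcription factor bZIP60 is activated by splicing of its mRNA and switches on chaperone genes. The 3 wheat genes that the study names as its orthologs had 22.1 to 84.1 FPKM in DTT+TUDCA leaves, 9.16 to 24.1 FPKM in DTT leaves and 3.2 to 5.27 FPKM in control leaves. Their log2 differences were 0.84 to 1.07, none was called, and without replicate 2 the median was 0.48. Gene counts do not show the spliced form. Among 23 genes of unfolded protein binding, 15 were higher and none was called, with a median of 0.38, and 0.37 without DTT+TUDCA replicate 2.

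**Figure D4:**
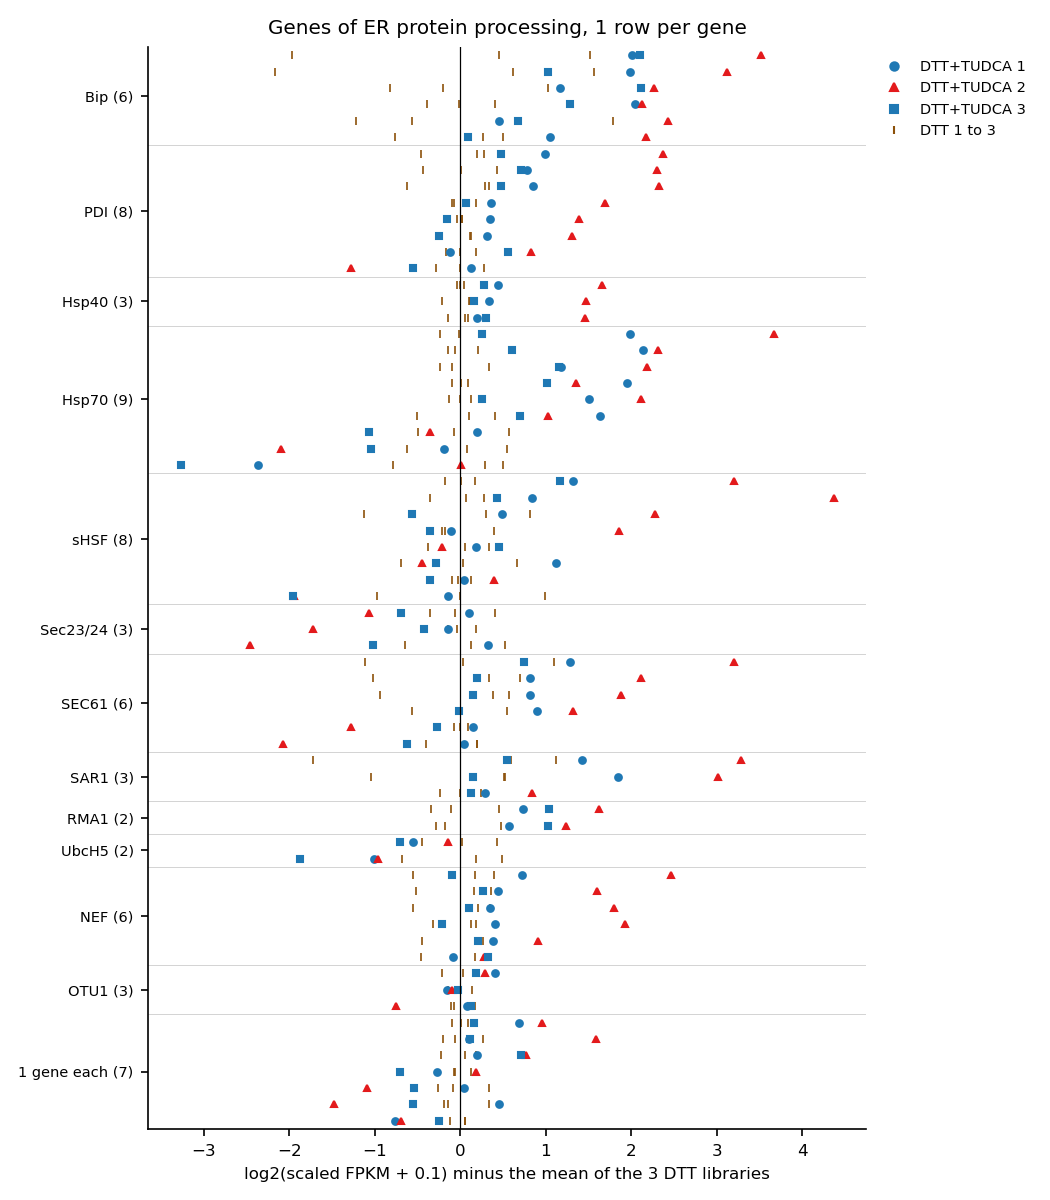
Log2(scaled FPKM + 0.1) of each library minus the mean of the 3 DTT libraries (x axis) for the 66 genes of ER protein processing, 1 row per gene, in named groups, with the number of genes in parentheses and groups of 1 gene joined in the last block. Red triangles (DTT+TUDCA replicate 2) lie to the right of the blue circles and squares (replicates 1 and 3) in most rows, with medians of 1.37 against 0.40 and 0.15.

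Chitinases, which cut the chitin of fungal walls, were higher in 9 of 11 genes and 4 were called (36.4%, against 1.10% of all genes tested). The median log2 fold change was 1.19, or 1.17 without DTT+TUDCA replicate 2. Of the 11 genes, 8 come from the D vs. C table alone, 2 of them called higher, with a median of 0.66. Traes_1AL_E96C0662D had 12.4, 19.4 and 2.77 FPKM in DTT+TUDCA leaves, against 0.59, 1.4 and 1.4 FPKM in DTT leaves and 4.88 to 7.49 FPKM in control leaves (log2 fold change 2.99, SE 0.63). The groups did not overlap, though the DTT+TUDCA libraries were spread widely. TRAES3BF073700160CFD_g had 3.64, 6.28 and 6.33 FPKM in DTT+TUDCA leaves, against 2.86, 1.91 and 1.24 FPKM in DTT leaves and 1.44 to 2.91 FPKM in control leaves.

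Endopeptidase inhibitors, which block digestive proteases of insects and microbes, were higher in 4 of 4 genes and 3 were called. The strongest, TRAES3BF273400020CFD_g, had 175, 250 and 72.3 FPKM in DTT+TUDCA leaves, against 29.5, 34 and 35.4 FPKM in DTT leaves and 23.9 to 43.3 FPKM in control leaves. The DTT libraries were at the level of untreated leaves and all DTT+TUDCA libraries were above both (log2 fold change 2.21, SE 0.40, and 1.80 without DTT+TUDCA replicate 2). This term comes wholly from the T vs. D table.

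Peroxidases of class III oxidise phenolic compounds with hydrogen peroxide in the cell wall. Of 40 genes under peroxidase activity, 5 were called higher and none lower, and the median was 0.25, against -0.02 over all genes tested. All 5 are among the 7 taken from the T vs. D table, while none of the other 33 was called (median 0.08). Without DTT replicate 1 or DTT replicate 2 there were 8 calls in the term, and without DTT+TUDCA replicate 1 there were 9. Traes_2DS_708F03DA3 had 139, 190 and 155 FPKM in DTT+TUDCA leaves, against 77.5, 77.7 and 59.9 FPKM in DTT leaves and 131 to 202 FPKM in control leaves. Its DTT+TUDCA libraries lay within the range of the control (log2 fold change 1.23, SE 0.21). Traes_2AS_457604359, at 9.06, 20.6 and 3.62 FPKM in DTT+TUDCA leaves, was above both DTT leaves (0.8, 0.4 and 0.64 FPKM) and control leaves (0.57 to 2.12 FPKM), with a log2 fold change of 3.72 (SE 0.63).

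Ammonia-lyases feed phenylpropanoid synthesis from phenylalanine. Of 10 genes, 8 were higher and 2 called, both weakly expressed and both from the T vs. D table, and without DTT+TUDCA replicate 2 there was 1 call. Traes_2DS_28CA50371 had 0.59, 1.12 and 0.53 FPKM in DTT+TUDCA leaves, against 0.03, 0.11 and 0.09 FPKM in DTT leaves. Against a floor of 3 fragments in each DTT library it was at least 8.04-fold higher with TUDCA. Nutrient reservoir activity is a term given to cupin and germin-like proteins. Of its 24 genes 8 had a higher and 13 a lower mean log2 level with TUDCA, only 3 were called, all higher and all from the T vs. D table, and the median over the term was -0.03. These 3 genes lie on the chromosomes 2A, 2B and 2D and may share reads. Traes_2AS_744F6C927 had 15.6, 20.8 and 28.5 FPKM in DTT+TUDCA leaves, against 5.38, 3.96 and 6.96 FPKM in DTT leaves and 92.8 to 187 FPKM in control leaves. With TUDCA it was above DTT (log2 fold change 2.02, SE 0.34) and still far below untreated leaves.

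Of the 8 genes under serine/threonine kinase activity all were higher and 4 were called, but without DTT+TUDCA replicate 2 there were 2 calls, and 1 gene was called in both fits. Of the 3 fucosyltransferase genes, whose enzymes decorate wall polysaccharides, all were higher and 2 called. Both terms come from the T vs. D table. The fucosyltransferase gene Traes_1BL_B0FD45910 had 5.98, 5.88 and 6.56 FPKM in DTT+TUDCA leaves, against 2.2, 3.95 and 3.21 FPKM in DTT leaves and 4.54 to 6.25 FPKM in control leaves (log2 fold change 1.05, with and without DTT+TUDCA replicate 2).

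Among transcription factors, 24 were called higher and 12 lower of 450 tested, and the median was 0.00. The list was drawn from the comparisons of the study, so its direction is not independent evidence. Calls made up 8.0% of the list, against 1.10% of all genes tested. Among 14 heat shock factor genes 42.9% were called, 3 in each direction, and all 7 zf-HD genes were higher with none called. In the WRKY family, known for its part in defence, 16 of 18 genes were higher, 6 were called higher (33.3%) and none lower. Its median was 1.0 (0.81 with 4 calls without DTT+TUDCA replicate 2). Traes_2AS_6269D889E, named after its values were seen, had 4.98, 4.49 and 5.85 FPKM in DTT+TUDCA leaves, against 1.79, 1.51 and 1.32 FPKM in DTT leaves and 1.09 to 2.23 FPKM in control leaves. Its DTT libraries were at the level of the control and its DTT+TUDCA libraries were above both (log2 fold change 1.72). Novel13869, which the study relates to WRKY33, had 2.38, 2.33 and 3.2 FPKM in DTT+TUDCA leaves and 1.35, 0.53 and 1.43 FPKM in DTT leaves, a log2 difference of 1.33 that was not called.

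Of 39 NAC genes, 1 was called higher and 3 lower (median -0.47). Of 14 heat shock factor (HSF) genes, 3 were called in each direction, but without DTT+TUDCA replicate 2 there was 1 call, higher, and none lower. Of 44 MYB genes, 6 were called higher and 1 lower, and without that replicate 4 higher and none lower. None of 29 bZIP genes was called. The MYB gene Novel12259 had 0.9, 0.16 and 1.75 FPKM in DTT+TUDCA leaves, against 0, 0.04 and 0 FPKM in DTT leaves and 0 to 0.23 FPKM in control leaves. Its DTT+TUDCA mean was at least 9.34-fold above a floor of 3 fragments in each DTT library. DTT+TUDCA replicate 2, with 4 fragments, was close to that floor, and the log2 fold change was 2.78 (SE 0.73). Traes_1AS_36AF74187, named by the study as an ortholog of MYB112, had 0.69, 0.77 and 0.31 FPKM in DTT+TUDCA leaves, 0.11, 0.24 and 0.1 FPKM in DTT leaves and 0 in control leaves (log2 fold change 1.47, SE 0.42), and it was not called without DTT+TUDCA replicate 2 (1.25). The bHLH gene Novel07753 (TabHLH39) had 32.4, 51.8 and 34.5 FPKM in DTT+TUDCA leaves, against 23, 22 and 16.1 FPKM in DTT leaves and 31.6 to 36.6 FPKM in control leaves. Its log2 difference of 1.0 was just under the threshold before rounding, so it was not called. Without DTT replicate 3 or DTT+TUDCA replicate 2, 23 transcription factors were called in place of 36.

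Sucrose metabolism was lower with TUDCA in 11 of 12 genes, with a median of -0.74 (-0.57 without DTT+TUDCA replicate 2), and 2 were called, both among the 3 genes from the T vs. D table. The called gene Traes_4AS_EF48BBCCF had 42.1, 21.8 and 27.5 FPKM in DTT+TUDCA leaves, against 76.5, 46.3 and 89.3 FPKM in DTT leaves and 4.95 to 5.44 FPKM in control leaves (log2 fold change -1.16, SE 0.27), and was not called without DTT+TUDCA replicate 2 (-0.97). Its DTT+TUDCA libraries lay between those of the DTT and control groups. Of 13 trehalose genes, 1 was called lower, namely the trehalose-6-phosphate phosphatase gene Traes_1AL_68FA687CC at 0.68, 0.48 and 0.42 FPKM in DTT+TUDCA leaves, 1.09, 1.27 and 1.49 FPKM in DTT leaves and 0.33 to 0.34 FPKM in control leaves.

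The 10 genes of the photosystem I reaction center had log2 differences of -0.11 to 0.31 and none was called. The 24 genes of the oxygen evolving complex had log2 differences of -1.16 to 1.34 with a median of 0.26, and all DTT+TUDCA libraries were above all DTT libraries in 7 of them (against 5.56% of all genes). All 24 come from the D vs. C table, which uses the same DTT libraries, so this share is not independent evidence. Of these 24 genes, 1 was called higher, and none without DTT+TUDCA replicate 2. The called gene, Traes_5BL_FCB1625F3, is also listed as an HSF transcription factor and under photosynthesis, and is counted in each of these lists. Under photosynthesis as a whole, 2 of 43 genes were called higher and 5 lower (16.3%, against 1.10% of all genes), and without DTT replicate 1, DTT replicate 3 or DTT+TUDCA replicate 3 there were 4 calls. Of the 5 genes from the T vs. D table, 1 was called higher and 4 lower. Of the 38 from the D vs. C table alone, 1 was called higher and 1 lower. The study chose the list on these libraries, so its share of calls is not independent evidence. The 4 lowered genes named here were close to 0 in untreated leaves, unlike the reaction center genes. Traes_3DS_BB402655B had 1.5, 0.8 and 0.81 FPKM in DTT+TUDCA leaves, against 7.89, 2.13 and 10.7 FPKM in DTT leaves and 0 to 0.13 FPKM in control leaves (log2 fold change -2.34, SE 0.59), and TRAES3BF160500030CFD_g, Traes_3AS_529205E34 and Novel01062 had at most 0.05 FPKM in control leaves.

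The study singled out 10 candidate genes, and all 10 were called, 3 higher and 7 lower, as they were chosen on these libraries. Without DTT+TUDCA replicate 2 or DTT replicate 3, 6 were called. Beside the dehydrins and the trehalose gene, the lowered ones include TRAES3BF274400020CFD_g, a pyrroline-5-carboxylate synthetase, the enzyme that starts proline synthesis. It had 1.41, 1.14 and 1.53 FPKM in DTT+TUDCA leaves, against 2.61, 4.39 and 6.93 FPKM in DTT leaves, and was listed at 0 in control leaves (log2 fold change -1.54, SE 0.36). Traes_2BS_C02C5A463, a pectin lyase-like gene, had no fragment in DTT+TUDCA or control leaves and 0.12, 1.16 and 0.9 FPKM in DTT leaves, which makes it at least 6.85-fold lower with TUDCA against a floor of 3 fragments a library. This gene, too, entered the test only through its DTT level. Of the higher ones, the mlo gene Traes_2BS_DABEABDDC, of a family known for mildew susceptibility, had 1.68, 2.16 and 1.1 FPKM in DTT+TUDCA leaves, against 0.85, 0.4 and 0.48 FPKM in DTT leaves and 0.05 to 0.18 FPKM in control leaves (log2 fold change 1.42, SE 0.40). It was not called without DTT+TUDCA replicate 2 (1.19).

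The largest rises among genes without overlap, called with and without DTT+TUDCA replicate 2, were in Traes_2BS_EAB2C09D0, Traes_1AL_C40703A29 and Traes_7DL_A2604A6D5, which the tables used here do not annotate. In Traes_2BS_EAB2C09D0 the FPKM was 5.79, 22.1 and 0.65 in DTT+TUDCA leaves, against 0.1, 0.23 and 0.05 in DTT leaves and 0.69 to 3.43 in control leaves (log2 fold change 4.44, SE 1.05). Traes_1AL_C40703A29 had 8.79, 27.5 and 1.97 FPKM in DTT+TUDCA leaves, against 0.07, 0.53 and 0.94 FPKM in DTT leaves (log2 fold change 4.08, SE 0.92). Traes_7DL_A2604A6D5 had 7.76, 48.2 and 1.46 FPKM in DTT+TUDCA leaves, against 0.7, 0.32 and 0.32 FPKM in DTT leaves (log2 fold change 4.05, SE 1.02). In all 3 genes DTT+TUDCA replicate 2 was the highest and replicate 3 the lowest of its group, so that the size of the rise is poorly fixed. Under the same rule, the largest falls were in the response to water genes Traes_5DL_134F29727 and Novel15565 and in EPlTAEG00000004058, which had no fragment in DTT+TUDCA leaves and 5.3, 0.58 and 0.49 FPKM in DTT leaves. The last rests on 1 to 10 fragments in each DTT library, and against a floor of 3 fragments a library it was only at least 1.1-fold lower with TUDCA.

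**Figure D5:**
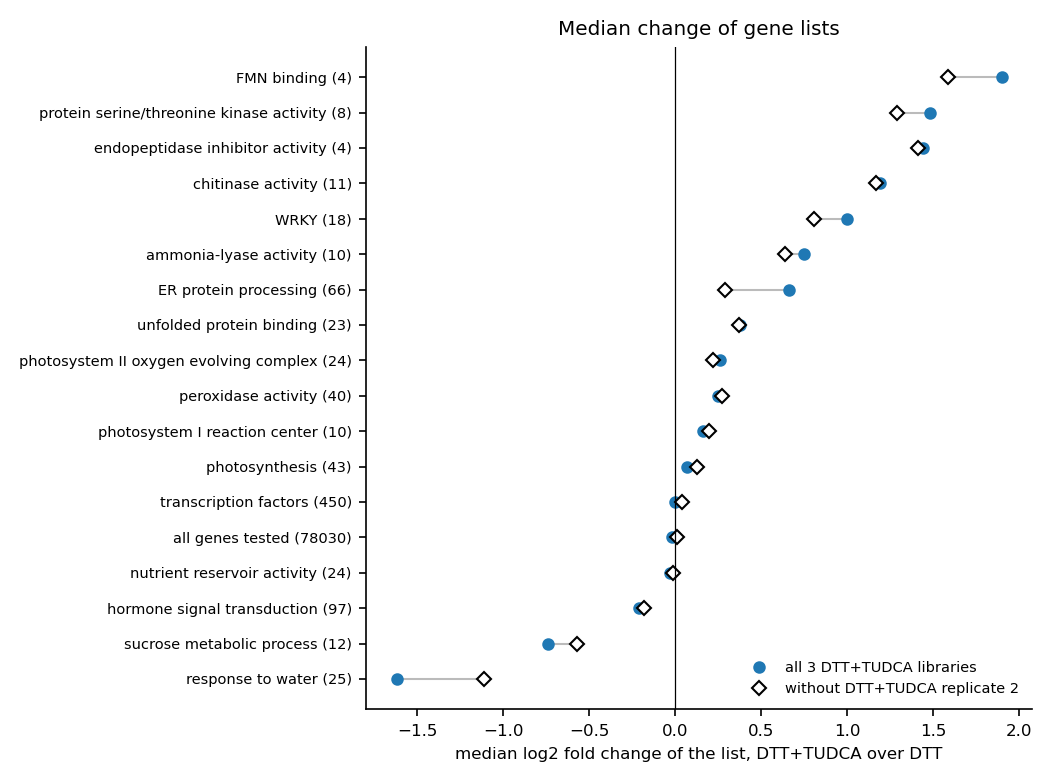
Median log2 fold change (DTT+TUDCA over DTT, x axis) of 17 gene lists and of all genes tested (rows, number of genes in parentheses), with all 3 DTT+TUDCA libraries (filled circles) and without DTT+TUDCA replicate 2 (open diamonds). The medians span 1.90 for FMN binding to -1.62 for response to water, and the largest shifts without replicate 2 are those of response to water (to -1.11) and ER protein processing (0.66 with it and 0.29 without).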

How the data were processed

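RNA-seq of 9 leaf libraries was used. The authors discarded reads of low quality or with adapters or unknown bases, mapped the remainder to the wheat genome and deposited FPKM values per gene, unscaled between libraries. The submitters' processing notes name Bowtie2 2.2.3, TopHat2 2.0.12 and HTSeq 0.6.1. The genome release is not given in the sources used here. FPKM divided by median-ratio factors from 54436 genes were tested as log2(value + 0.1) in R 4.3.3 with limma 3.58.1, in 1 model of 3 groups with a variance trend, in place of the count test of the study. Numbers of fragments were recovered from the steps of the FPKM values for 100% of genes above 0. The tolerance for a whole number was 0.001, with a wider one for genes that failed it. Counting error is part of every low value. The steps were tested on simulated data.

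Gene names and lists come from the supplementary tables of the study, some of which were held in part, and no identifier matched the gene table given. Members and lists were chosen with earlier results of these data known. Named genes were those with an adjusted P under 0.05, the 3 largest rises and falls that hold without DTT+TUDCA replicate 2, up to 4 called genes of each list or group (else the largest change), and the genes and candidates the study names; others are marked. As alternatives, 0.01 or 1 was added to the values, and the others were a mean FPKM of at least 1 or no minimum, unscaled FPKM, quantile normalization, a replicate block, no trend, only the DTT and DTT+TUDCA libraries, array weights, limma-voom on recovered fragments, calls by adjusted P, and leaving out each library.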

Additional observations from a re-analysis of the deposited data

How the results depend on the processing

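The number of calls depended on the settings. The direction over all genes moved as well. Of 78030 genes, 37343 were higher with TUDCA in the main fit, 40321 without DTT+TUDCA replicate 2 and 32671 with unscaled FPKM. Counts were compared with 493 genes higher, 364 lower, and 10 calls in ER protein processing, 5 in hormone signalling, 10 candidates, 36 transcription factors, 10 in response to water, 5 peroxidases and 7 in photosynthesis. With 0.01 added before the log2 there were 6 ER, 1 hormone, 5 response to water and 3 photosynthesis calls. With 1 added there were 202 higher and 161 lower, 2 hormone, 4 candidate, 15 transcription factor, 3 peroxidase and 2 photosynthesis calls. With a mean FPKM of at least 1, which tests fewer genes, there were 296 higher and 160 lower, 6 ER, 2 hormone, 18 transcription factor and 4 photosynthesis calls. With only the DTT and DTT+TUDCA libraries there were 2 hormone and 23 transcription factor calls. With adjusted P-values under 0.05 (limma) there were 0 higher and 1 lower, 1 in response to water and 0 in the other lists named, against 29 ER genes with an unadjusted P under 0.05. Leaving out 1 library gave 348 to 872 higher, 215 to 1310 lower, 2 to 15 ER, 1 to 17 hormone, 6 to 10 candidate, 23 to 47 transcription factor, 5 to 16 response to water, 5 to 9 peroxidase and 4 to 7 photosynthesis calls. Of the 109 genes named by rule, 72 were called, and over the alternatives these gave 1180 values on the same side of the threshold, 236 that were no longer called and 0 of the opposite sign. The called genes had been picked for a log2 fold change of at least 1 in size, so the lack of sign changes among them is no evidence of a stable direction. Among the 37 that were not called, 19 values became called and 4 changed sign: Traes_3AL_9D2735F60 (-0.14) gave 0.03 with array weights and -0.34 to 0.07 with 1 library left out, turning without DTT replicate 1, Traes_6AS_5A19432A11 (-0.17) gave -0.34 to 0.03, turning without DTT replicate 2, and Novel03728 (-0.27) gave -0.5 to 0.14, turning without DTT+TUDCA replicate 2. The cause was not tested. Correlations of deviations between DTT+TUDCA and DTT libraries were 0.04, 0.04 and -0.17 for the same replicate numbers. For unlike numbers they ranged from -0.24 to 0.29. These values cannot decide whether libraries of the same number belong together. With the replicate block there were 17 ER, 11 hormone and 16 response to water calls. Depth limits genes near 3 fragments a library, which were 130 of the 364 lowered genes in every DTT+TUDCA library and 91 of the 493 raised genes in every DTT library.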
